A study of Mus musculus with 8 samples.

Results

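Cholesterol synthesis genes and further targets of the sterol regulator SREBP2 were followed in the livers of female mice as a list of 30 genes. The members were named by symbol and comprise 20 enzymes that build cholesterol from acetyl-CoA, 4 genes of the sterol-sensing machinery and 6 genes that carry, esterify or release sterol. Each symbol was looked up by its Ensembl identifier among the 14317 mouse genes of the deposited table. All 30 were found, all 30 had the mean normalised count of at least 10 that was required for testing, as did 14312 of the mouse genes, and 28 had a mean of at least 50.

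Whole-liver RNA was sequenced separately for each of 8 mice, 4 of them Con-Veh and 4 Con-DHT. All were females labelled WT which, by the study's methods, received an implant at 7 weeks of age and ate a western diet (WD) rich in palm oil, fructose and cholesterol for 8.5 weeks. Con-DHT mice carried a 10 mm pellet of dihydrotestosterone (DHT), an androgen that is not converted to estrogen, and Con-Veh mice an empty pellet. The design asks how the liver transcriptome differs when an androgen is given during the diet, and because both groups ate the same cholesterol-rich diet, no library shows these genes on regular chow. Between 14240001 and 17815944 reads per library were counted on mouse genes in Con-Veh and between 13123962 and 15205299 in Con-DHT.

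Cholesterol synthesis starts in the cytosol with the mevalonate arm, which makes isoprenoid units, continues through squalene to lanosterol, the first sterol, and ends with a series of steps that trim lanosterol to cholesterol. SREBP2, encoded by Srebf2, is held in the endoplasmic reticulum by the sterol sensor SCAP and the INSIG proteins while membrane cholesterol is high. When it falls, SCAP escorts SREBP2 to the Golgi, where it is cut, and the released fragment enters the nucleus and raises transcription of the whole pathway together with the factors NF-Y and Sp1. The liver is a main site of this synthesis, and dietary cholesterol is known to lower it.

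The label check went with the groups. Mup20, a major urinary protein gene that is high in male liver, had a mean of 900 ± 254 (SD, n = 4) in Con-Veh and 34314 ± 10636 in Con-DHT. The 6 hepatocyte markers checked, led by Alb, the albumin gene, summed to between 791785 and 1583200 in the 8 livers, and 0 of the 6 passed the test between the groups (0 also at an unadjusted p of at most 0.05, and 0 by edgeR and by DESeq2).

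The promoters of the members were searched for the letters of 4 motifs. The members were named as cholesterol synthesis genes and SREBP2 targets, and SREBP2 acts with NF-Y and Sp1. The letters that these 2 factors read are thus not independent of the choice of members. RefSeq promoter windows of 300 bases (250 before to 50 after the annotated start, build GRCm38.p6) were matched by symbol for 24 of the 30 members, all but Fdps, Fdft1, Sqle, Stard4, Soat2 and Npc1. Some genes have several annotated starts and so several windows, and a gene was counted where any of its windows held the letters, searched on both strands. The letters CCAAT, the core that NF-Y reads, were present in 22 of the 24 members (91.7%), against 41.1% of the 27025 genes with a window. These 27025 genes were not limited to the genes tested in liver. The letters GGGCGG, the core that Sp1 reads, were also present in 22 of the 24 (91.7%), against 38.2% of all genes. The letters TCACNCCAC, taken from the sterol response element, were found only in Hmgcs1, which is 1 of the 24 (4.17%) against 1.44% of all genes. The letters TTCNNNGAA, the core of STAT5 sites, were found in 2 of the 24, Ggps1 and Ebp (8.33% against 9.55% of all genes). A match of letters describes the window and is not a binding site. Nor does a window without the exact letters TCACNCCAC thereby lack a sterol response element, since other spellings were not searched.

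4 windows are shown because the values below turn on these genes: Hmgcs1, the only one of the 24 searched members with the sterol response element letters, and Idi1, Cyp51 and Msmo1, the members that were highest in a single Con-DHT liver. They lie at chr13:119690101-119690400 (plus strand) for Hmgcs1, chr13:8885356-8885655 (plus strand) for Idi1, chr5:4104648-4104947 (minus strand) for Cyp51 and chr8:64733529-64733828 (minus strand) for Msmo1, and each covers the promoter and the first bases of the transcript. Capitals mark CCAAT, written ATTGG where it lies on the other strand, and in Hmgcs1 also the single TCACNCCAC match.
Hmgcs1: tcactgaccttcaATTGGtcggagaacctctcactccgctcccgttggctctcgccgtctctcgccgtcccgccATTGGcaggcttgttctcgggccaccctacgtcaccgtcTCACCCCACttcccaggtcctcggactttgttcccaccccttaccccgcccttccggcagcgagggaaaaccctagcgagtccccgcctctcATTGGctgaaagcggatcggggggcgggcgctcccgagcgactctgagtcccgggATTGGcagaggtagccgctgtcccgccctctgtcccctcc
Idi1: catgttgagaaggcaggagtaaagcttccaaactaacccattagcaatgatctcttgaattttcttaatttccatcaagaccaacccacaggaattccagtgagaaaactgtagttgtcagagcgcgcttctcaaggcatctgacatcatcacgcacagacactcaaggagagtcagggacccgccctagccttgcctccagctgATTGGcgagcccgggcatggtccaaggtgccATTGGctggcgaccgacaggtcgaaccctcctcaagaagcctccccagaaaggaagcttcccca
Cyp51: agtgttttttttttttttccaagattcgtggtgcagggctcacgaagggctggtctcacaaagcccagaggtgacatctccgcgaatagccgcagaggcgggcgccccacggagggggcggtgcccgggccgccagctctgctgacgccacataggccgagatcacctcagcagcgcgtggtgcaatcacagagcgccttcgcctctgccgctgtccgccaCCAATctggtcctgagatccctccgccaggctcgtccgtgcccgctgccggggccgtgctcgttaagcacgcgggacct
Msmo1: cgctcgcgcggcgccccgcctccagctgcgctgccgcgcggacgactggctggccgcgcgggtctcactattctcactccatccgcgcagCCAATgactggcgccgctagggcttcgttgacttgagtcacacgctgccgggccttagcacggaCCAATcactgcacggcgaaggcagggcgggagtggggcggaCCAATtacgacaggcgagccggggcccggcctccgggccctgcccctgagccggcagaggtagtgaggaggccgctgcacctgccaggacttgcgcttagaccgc
Hmgcs1 had 4 CCAAT matches, Msmo1 had 3, Idi1 had 2 and Cyp51 had 1.

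1 liver stood apart in this list and has to be kept in mind for every group mean. Con-DHT 4 had the highest value of the 4 Con-DHT livers in 19 of the 30 members, and in 14 of the 20 synthesis enzymes, whereas it was the highest in 27.9% of all tested genes. It was at least 1.5-fold above the mean of the 3 other Con-DHT livers in 10 of the 30 members, against 5.67% of all tested genes. Those 10 were Idi1, Msmo1, Cyp51, Sqle, Fdps, Mvd, Nsdhl, Dhcr7, Hsd17b7 and Srebf2, so that 9 of them are synthesis enzymes. The ratios were 3.50-fold for Idi1, 2.55-fold for Msmo1, 2.52-fold for Cyp51, 2.47-fold for Sqle and 2.41-fold for Fdps, and these 5 ranked among the 100 genes with the highest such ratio of the 14312 tested. Lss at 1.499-fold and Mvk at 1.489-fold lay just under 1.5. Of the 7 other livers, Con-Veh 3 was at least 1.5-fold above its group in 2 members (5.07% of all tested genes), Con-Veh 1 in 1 (5.54%) and the rest in 0. Con-DHT 1 was at least 1.5-fold below the 3 other livers in 7 members (5.56% of all tested genes), Con-DHT 3 in 3 (6.62%) and Con-DHT 2 in 1 (6.42%), comparisons in which Con-DHT 4 is part of the mean. Con-Veh 3 was that far below its group in 1 member, Insig2 (846 of the 14312 tested genes), and the other Con-Veh livers in 0.

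The depth of Con-DHT 4 was the lowest of the 8 libraries, with 13123962 reads on mouse genes, and the 30 members took 0.191% of them, against 0.151% to 0.170% in the 7 others. Its summed Kupffer cell and macrophage markers, 4518, and sinusoidal endothelial markers, 2464, were within the range of the other Con-DHT livers, 4395 to 6014 and 2220 to 2541. The summed erythroid markers were 8104 in Con-DHT 4 against 4036 to 4922 in the other Con-DHT livers, and the hepatocyte markers 997481 against 822645 to 961531. It had the highest summed level of the 8 livers for the lipid-associated macrophage markers, 1483 against 1012 to 1045 in the other Con-DHT livers, and for the 3 adipocyte and exocrine pancreas markers in the table, 570 against 389 to 466. Their part in the high values of this liver was not tested. The members spread more widely in Con-DHT with this liver than without it. The median SD of the members on the log2 scale was 0.18 in Con-Veh, 0.30 in Con-DHT and 0.18 in Con-DHT without Con-DHT 4, beside 0.19, 0.19 and 0.17 for all tested genes.

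**Figure D1:**
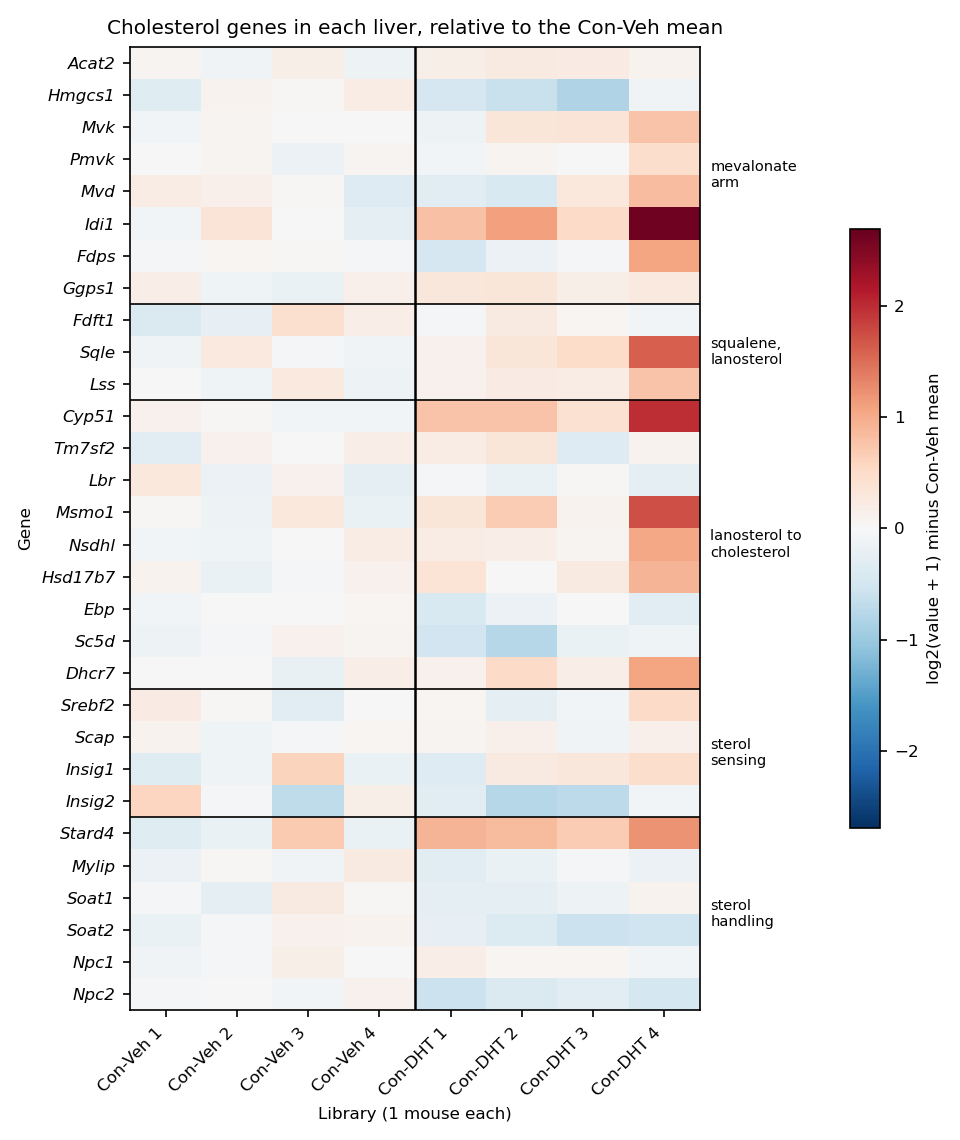
Heatmap of the 30 members (rows, grouped by role) in the 8 livers (columns), with colour giving log2(normalised count + 1) minus the mean of the 4 Con-Veh livers. The Con-DHT 4 column is red across most synthesis enzymes, led by Idi1, Cyp51 and Msmo1, while Stard4 is red and Npc2 and Soat2 are blue in all 4 Con-DHT columns.

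**Figure D2:**
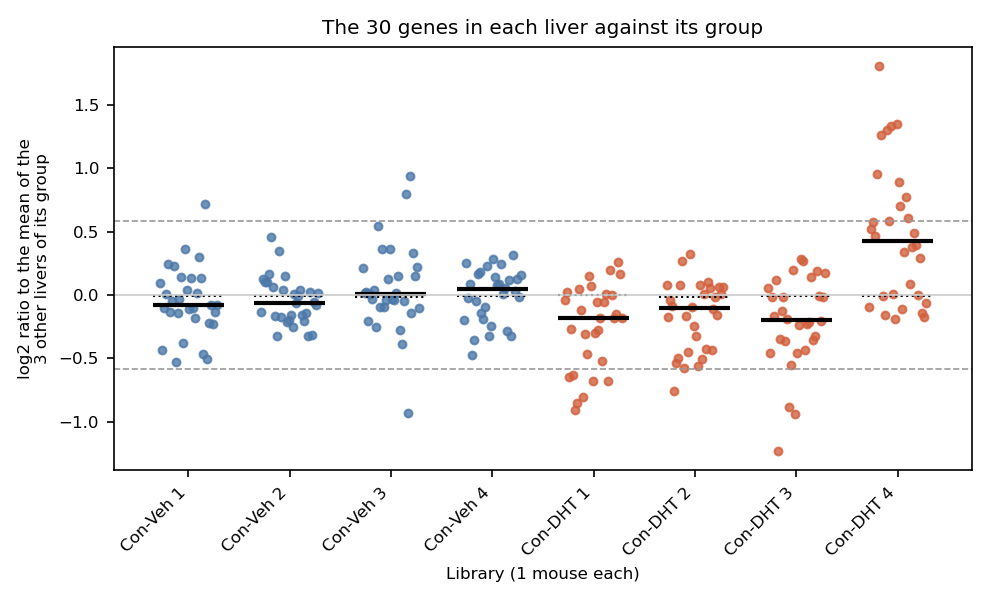
Each point is 1 of the 30 members, and the vertical axis is the log2 ratio of its value in that liver to the mean of the 3 other livers of its group. Solid lines are medians over the members, dotted lines medians over all tested genes, and dashed lines 1.5-fold; the median is 0.43 in Con-DHT 4 and between -0.20 and 0.04 in the 7 others.

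Between the groups, 3 of the 30 members passed the test across all genes (limma, adjusted p of at most 0.05), beside 7.21% of all tested genes. Npc2 and Soat2 were lower in Con-DHT (2 members, beside 2.61% of all tested genes) and Stard4 was higher (1 member, beside 4.6%), and all 3 belong to sterol handling rather than to synthesis. None of the 20 synthesis enzymes passed in limma or edgeR, while 7 had an unadjusted p of at most 0.05 and DESeq2 called 3 of them, Cyp51 and Idi1 as higher and Hmgcs1 as lower. Over the 30 members, 10 had an unadjusted p of at most 0.05, beside 23.2% of all tested genes. edgeR called the same 3 members as limma (7.15% of all genes), and DESeq2 called 6 (11.0% of all genes).

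The median log2 fold change of the 30 members was 0.10, with 21 above 0 and 9 below, beside a median of -0.01 for all tested genes. Without Con-DHT 4 it was 0.07, with 18 above 0 and 12 below, and without Con-DHT 1 and Con-DHT 2 it was 0.19 and 0.15. The 20 synthesis enzymes had a median of 0.22, with 16 above 0, and 0.17 without Con-DHT 4. In 4 members the groups did not overlap, Idi1 and Cyp51 being higher and Soat2 and Npc2 lower in Con-DHT, beside 15.1% of all tested genes (8.49% higher and 6.62% lower). An exact two-sided permutation of 4 against 4 gives p = 0.029 at the least, and it gave that value for these 4. In whole liver, fewer cells of a type and less RNA per cell cannot be told apart.

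**Figure D3:**
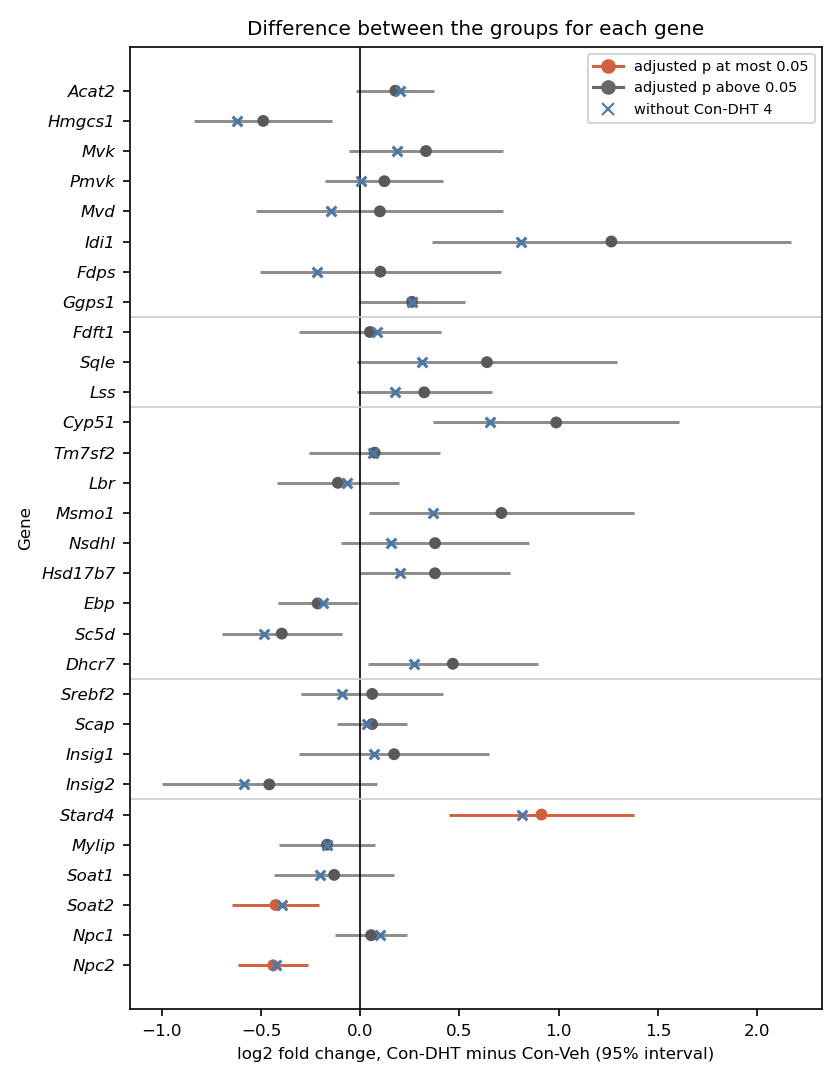
Log2 fold change of each member (Con-DHT minus Con-Veh, on log2(value + 1)) with its 95% interval from limma, by role. Red marks an adjusted p of at most 0.05 (Stard4, Soat2 and Npc2), and crosses give the value without Con-DHT 4, which is 0.81 in place of 1.27 for Idi1 and -0.22 in place of 0.10 for Fdps.

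The mevalonate arm held 8 members, of which 0 passed the test, 2 at an unadjusted p of at most 0.05 (Hmgcs1 and Idi1). Hmgcs1, whose enzyme joins acetyl-CoA and acetoacetyl-CoA to HMG-CoA, had the only negative log2 fold change of the arm. Its values were 1059, 1427, 1351 and 1520 in Con-Veh 1 to 4 and 974, 877, 752 and 1244 in Con-DHT 1 to 4. The groups overlapped only through Con-DHT 4, which lay above Con-Veh 1. The mean was 1339 ± 200 (SD, n = 4) in Con-Veh and 962 ± 209 in Con-DHT, for a log2 fold change of -0.49 ± 0.16 (SE; limma adjusted p = 0.092). Without Con-DHT 4 it was -0.62 with an adjusted p of 0.033, and without Con-Veh 1 it was -0.60 with an adjusted p of 0.0499. These were the only 2 of 8 fits with a liver left out in which Hmgcs1 passed. In the rest the adjusted p was between 0.15 and 0.21.

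Idi1, which turns isopentenyl diphosphate into its reactive isomer, had the largest positive log2 fold change of the list. It was 19.8, 27.02, 20.96 and 17.4 in Con-Veh and 37.3, 46.5, 30.6 and 135.9 in Con-DHT. Every Con-DHT liver was above every Con-Veh liver, and Con-DHT 4 lay far above the others. The log2 fold change was 1.27 ± 0.41 (95% interval 0.36 to 2.17), with an adjusted p of 0.093 in limma and 0.011 in DESeq2. Without Con-DHT 4 it was 0.81 (adjusted p = 0.098). These are low values, since the Con-Veh mean of 21.3 made Idi1 the least abundant member per kilobase of exon.

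Mvk, Pmvk and Mvd, which phosphorylate mevalonate and decarboxylate the product, did not pass the test. Mvk lay between 93.4 and 104 in Con-Veh and was 89.3, 125, 127 and 170 in Con-DHT, so that Con-DHT 1 was the lowest of all 8 livers and Con-DHT 4 the highest. Its log2 fold change was 0.33 ± 0.18 (adjusted p = 0.29), and 0.18 without Con-DHT 4. Mvd was 46.2, 44.4, 40.9 and 31.3 in Con-Veh and 32.4, 30, 49.0 and 72.8 in Con-DHT. Its log2 fold change was 0.10 with all livers and -0.15 without Con-DHT 4. Pmvk had 0.12 and 0.01.

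Fdps, which makes farnesyl diphosphate, changed the sign of its difference with a single liver. It lay between 100.04 and 106 in all 4 Con-Veh livers and was 74.6, 91.9, 100.02 and 215 in Con-DHT. The 3 other Con-DHT livers were thus at or below the lowest Con-Veh liver, and the log2 fold change of 0.10 became -0.22 without Con-DHT 4. Of its exon bases, 26.7% are shared with Gm43738 on the same strand, the largest overlap of any member, so that its value is uncertain. On the opposite strand, 12.1% of the exon bases of Hmgcs1, 9.2% of those of Idi1 and 5.4% of those of Ggps1 overlap another gene. Ggps1, which makes geranylgeranyl diphosphate for protein prenylation, had 0.26 ± 0.12 (adjusted p = 0.22), and Con-DHT 4 at 130 lay within the range of its group, 122 to 136. Acat2, the cytosolic thiolase that supplies acetoacetyl-CoA, had 0.18 ± 0.09 (adjusted p = 0.27). Its reads could be shared with its near-identical neighbour Acat3, so this value is uncertain.

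Squalene and lanosterol formation held 3 members, and 0 passed the test. Sqle, the squalene epoxidase and a rate-limiting enzyme of the pathway, was 41.8, 54.0, 42.9 and 41.8 in Con-Veh and 49.1, 56.1, 63.3 and 140 in Con-DHT. The groups overlapped through Con-Veh 2, which was above Con-DHT 1. The log2 fold change was 0.64 ± 0.30 (adjusted p = 0.23), and 0.31 without Con-DHT 4. Lss, which closes the rings of lanosterol, was 229, 212, 280 and 211 in Con-Veh and 249.2, 269, 266 and 392 in Con-DHT, for a log2 fold change of 0.32 ± 0.15 (adjusted p = 0.24) that was 0.18 without Con-DHT 4. Fdft1, the squalene synthase at the branch point to sterols, had 0.05 ± 0.16, but 18.3% of its exon bases lie on the strand opposite to exons of Ctsb, a lysosomal protease gene, and the library kit named in the labels is not described there as marking strand.

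The steps from lanosterol to cholesterol held 9 members, of which 0 passed the test, although the unadjusted p was at most 0.05 for 5. Cyp51, the lanosterol demethylase that opens this series, came nearest. It was 152, 144, 134 and 134 in Con-Veh and 239, 242, 188 and 563 in Con-DHT. All 4 Con-DHT livers were above all 4 Con-Veh livers, which lay close together. The mean was 141 ± 8.62 in Con-Veh and 308 ± 172 in Con-DHT, for a log2 fold change of 0.99 ± 0.28 (adjusted p = 0.061 in limma, 0.052 in edgeR and 0.0030 in DESeq2). Without Con-DHT 4 it was smaller, 0.65, with an adjusted p of 0.021 in limma, and without Con-DHT 3 it was 1.18 (adjusted p = 0.038). These were the only 2 of 8 fits with a liver left out in which Cyp51 passed. In the rest the adjusted p was between 0.093 and 0.13, and without the intensity trend it was 0.11.

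Msmo1, Nsdhl and Hsd17b7 remove the methyl groups at carbon C4 of the sterol, and all 3 were highest in Con-DHT 4. Msmo1 was 140, 124, 165 and 120 in Con-Veh and 171, 218, 146 and 457 in Con-DHT, for a log2 fold change of 0.71 ± 0.30 (adjusted p = 0.19) that was 0.37 without Con-DHT 4. Nsdhl was 60.5, 58.9, 62.9 and 74.0 in Con-Veh and 73.6, 72.6, 67.4 and 133 in Con-DHT. Apart from Con-DHT 4, its groups overlapped, and its log2 fold change of 0.38 ± 0.21 was 0.15 without that liver. Hsd17b7 was 809, 661, 739 and 811 in Con-Veh and 977, 742, 887 and 1416 in Con-DHT. Its log2 fold change was 0.38 ± 0.17 (adjusted p = 0.22), and 0.20 without Con-DHT 4. Dhcr7, a reductase of the last steps, was 176, 174, 151 and 198 in Con-Veh and 187, 250, 197 and 362 in Con-DHT, and the log2 fold change was 0.47 ± 0.19 (adjusted p = 0.18), or 0.27 without Con-DHT 4.

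Ebp and Sc5d, the isomerase and the desaturase that shift the double bonds of the sterol rings, had negative log2 fold changes. Sc5d was 2345, 2494, 2782 and 2698 in Con-Veh and 1807, 1509, 2276 and 2361 in Con-DHT, so that only Con-DHT 4, the highest of its group, reached the lowest Con-Veh liver. The log2 fold change was -0.40 ± 0.14 (adjusted p = 0.11), and -0.49 without Con-DHT 4. Ebp was between 1988 and 2186 in Con-Veh and between 1571 and 2095 in Con-DHT, for a log2 fold change of -0.21 ± 0.09 (adjusted p = 0.19). Tm7sf2 at 0.07 ± 0.15 and Lbr at -0.11 ± 0.14, the sterol reductases that act after Cyp51, were within the spread of the mice. Tm7sf2 shares 12.1% of its exon bases with Vps51 on the same strand.

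In the sterol-sensing group, 0 of the 4 members passed the test (0 also at an unadjusted p of at most 0.05, and 0 by edgeR and by DESeq2). Srebf2, itself a target of SREBP2, was 851, 745, 595 and 735 in Con-Veh and 749, 613, 685 and 1042 in Con-DHT. The log2 fold change was 0.06 ± 0.16 (95% interval -0.30 to 0.42) with all livers and -0.09 without Con-DHT 4. Scap varied little, from 2268 to 2638 in Con-Veh and from 2290 to 2711 in Con-DHT. Insig1, a target of SREBP2 that feeds back on it, was 905, 1046, 1711 and 1001 in Con-Veh and 892, 1333, 1396 and 1568 in Con-DHT. Con-Veh 3 was the highest of the 8 livers for Insig1 and Con-DHT 1 the lowest.

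Insig2, the second retention factor, which in liver is known as a fasting and insulin-responsive gene, varied most within Con-Veh. It was 7390, 4827, 3106 and 5529 in Con-Veh and 4087, 2924, 3047 and 4717 in Con-DHT. The groups overlapped broadly, and the log2 fold change of -0.46 ± 0.24 did not pass the test (adjusted p = 0.29). It was -0.27 without Con-Veh 1 and -0.69 without Con-Veh 3 (adjusted p = 0.077). Con-Veh 3 had the highest Insig1 and the lowest Insig2 of its group. Per kilobase of exon, Insig2 was the most abundant member, with a Con-Veh mean of 1501 normalised counts per kb. It was followed by Ebp at 908 and Sc5d at 530, and the least abundant were Soat1 at 12.4, Sqle at 8.14 and Idi1 at 6.08.

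Sterol handling held the 3 members that passed, of 6. Npc2, a small soluble lysosomal protein that hands cholesterol to NPC1, had the smallest p of the list. Its values were 1208, 1268, 1192 and 1367 in Con-Veh and 843, 960, 1014 and 900 in Con-DHT. All 4 Con-DHT livers were below all 4 Con-Veh livers. The mean fell from 1259 ± 79.4 (SD, n = 4) to 929 ± 74.3, for a log2 fold change of -0.44 ± 0.08 (limma adjusted p = 0.0095; edgeR 0.011). Npc2 lies at chr12:84754562-84773152 on the minus strand (GENCODE M21, GRCm38). With each liver left out in turn it passed in 8 of 8 fits, with adjusted p between 0.011 and 0.032. Scaled by the spike-in RNA it had -0.24 and an adjusted p of 0.92. Npc1, the membrane partner of NPC2, lay between 2982 and 3573 in Con-Veh and between 3033 and 3620 in Con-DHT, and the log2 fold change was 0.05 ± 0.08 (95% interval -0.13 to 0.24).

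Soat2, the enzyme that esterifies cholesterol in hepatocytes for lipoproteins and droplets, was 718, 787, 873 and 863 in Con-Veh and 690, 623, 541 and 560 in Con-DHT. The groups did not overlap, although Con-Veh 1 and Con-DHT 1 lay close. The mean fell from 810 ± 72.8 to 603 ± 67.4, for a log2 fold change of -0.43 ± 0.10 (limma adjusted p = 0.028; edgeR 0.030). Soat2 lies at chr15:102150526-102163469 on the plus strand (GENCODE M21, GRCm38). It passed in 2 of 8 fits with a liver left out, those without Con-Veh 1 and without Con-DHT 1. In the other 6 the adjusted p was between 0.059 and 0.081 at log2 fold changes between -0.44 and -0.38, and with spike-in scaling it was 0.92. It was 0.062 without the intensity trend and 0.081 with an equal total without Mup genes. Soat1, the form found in macrophages and many other cells, had a log2 fold change of -0.13 ± 0.14 (adjusted p = 0.62).

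Stard4, a soluble carrier that moves cholesterol between membranes and a target of SREBP2, was 281, 311, 578 and 312 in Con-Veh and 673, 637, 566 and 821 in Con-DHT. Con-Veh 3 lay far above the rest of its group and just above Con-DHT 3, and only there did the groups overlap. The mean rose from 370 ± 139 to 674 ± 107, for a log2 fold change of 0.91 ± 0.21 (limma adjusted p = 0.028; edgeR 0.041). It passed in 2 of 8 fits with a liver left out, with 1.15 and an adjusted p of 0.0017 without Con-Veh 3, and also without Con-DHT 3. Without any of the 6 others the log2 fold change was 0.80 to 0.94 and the adjusted p between 0.062 and 0.080. Without Con-DHT 4 it was 0.81 with an adjusted p of 0.071, and without the intensity trend the adjusted p was 0.063. Mylip, a ubiquitin ligase gene that LXR switches on and whose product removes lipoprotein receptors, had -0.17 ± 0.11 (adjusted p = 0.40).

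**Figure D4:**
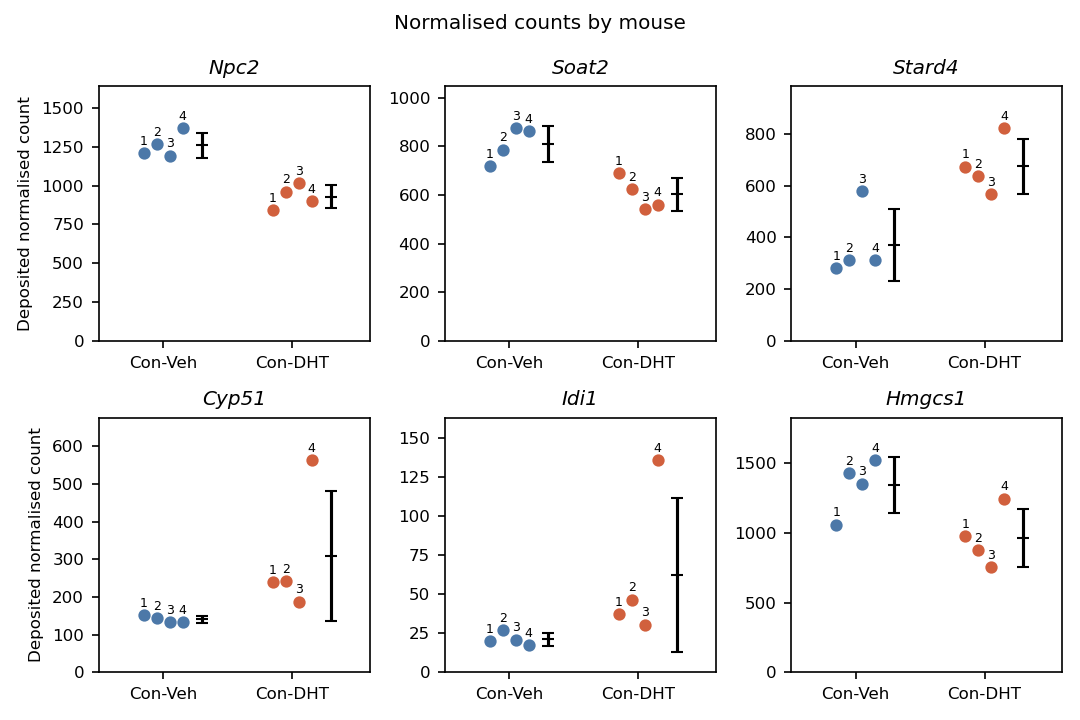
Deposited normalised counts (vertical axis, from 0) of 6 members in the 8 livers, with replicate numbers beside the points and mean ± SD as black bars. Npc2 and Soat2 are lower in all 4 Con-DHT livers, Stard4 is higher apart from Con-Veh 3, and Cyp51, Idi1 and Hmgcs1 each show Con-DHT 4 above the rest of its group.

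Markers of other liver cells moved with the groups and are given beside these results. Of 8 Kupffer cell and macrophage markers, 4 were lower in Con-DHT (Clec4f, Vsig4, Cd5l and Cd68) and all 8 had negative log2 fold changes, with a median of -0.58. Of all tested genes, 2.61% were lower. Their summed level was 7626, 8043, 6513 and 7576 in Con-Veh and 6014, 4395, 4958 and 4518 in Con-DHT, without overlap, and the most abundant was Cd5l. Of 5 sinusoidal endothelial markers, 2 were lower (Stab2 and Lyve1), and their summed level was 3021 to 3359 in Con-Veh and 2220 to 2541 in Con-DHT, Stab2 being the most abundant. edgeR called 4 of the Kupffer cell and macrophage markers and 1 of the endothelial markers, and DESeq2 called 5 and 2. Npc2 and Soat1 are also expressed by macrophages. The part of these cells in the lower Npc2 was not tested.

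Of the other lists, 0 of 4 lipid-associated macrophage markers, 0 of 6 stellate cell markers, 0 of 4 cholangiocyte markers, 0 of 3 erythroid markers, 0 of 2 B and plasma cell markers in the table and 0 of 1 neutrophil marker in the table passed the test in limma. edgeR called 0 of them and DESeq2 called 1 neutrophil and 1 erythroid marker. The unadjusted limma p was at most 0.05 for 1 lipid-associated macrophage, 1 stellate cell, 2 erythroid, 1 B and plasma cell and 1 neutrophil marker. Con-Veh 1 and Con-Veh 2 stood apart in the neutrophil marker, at 1674 and 2708. It was 144 and 168 in Con-Veh 3 and Con-Veh 4 and between 45.7 and 343 in Con-DHT, for a log2 fold change of -2.49. Its part in the values of the members was not tested. None of the 4 T cell markers was in the table. Among the 3 adipocyte and exocrine pancreas markers in the table, Cela1 was higher in Con-DHT (log2 fold change 0.94 ± 0.23, adjusted p = 0.034). Con-Veh 3, the liver with the high Stard4 and Insig1, had a summed stellate cell marker level of 3332, against 781 to 1413 in the 3 other Con-Veh livers, and its part in those values was not tested.

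The neighbouring steps of sterol metabolism were covered by 6 further lists with 61 tested genes, of which 2 were higher and 1 lower in Con-DHT. Of all tested genes, 4.6% were higher and 2.61% lower. The unadjusted limma p was at most 0.05 for 16 of the 61, beside 23.2% of all tested genes. None passed among 15 genes of SREBP processing and sterol-regulated degradation (5 at an unadjusted p of at most 0.05, 0 by edgeR, 1 by DESeq2). None passed among 5 electron donors and scaffold genes of the sterol enzymes (1 unadjusted), 13 genes of the isoprenoid branches (3 unadjusted) or 4 genes of cytosolic acetyl-CoA supply (1 unadjusted), and in these edgeR and DESeq2 also called 0. The median log2 fold change of the 61 genes was 0.02.

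In intracellular sterol transport, 1 of 14 genes passed. Scp2, whose products carry sterols and also thiolyse branched chains in peroxisomes, was 30436, 35517, 33202 and 34368 in Con-Veh and 60235, 53257, 49690 and 63695 in Con-DHT. All Con-DHT livers were well above all Con-Veh livers, including those other than Con-DHT 4. The log2 fold change was 0.76 ± 0.13 (adjusted p = 0.0063), and it passed in 8 of 8 fits with a liver left out, though not with spike-in scaling (0.96, adjusted p = 0.073).

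Among 10 genes of oxysterols and LXR in the table, 1 was higher and 1 lower. Cyp7b1, the oxysterol hydroxylase of the acidic bile acid pathway, was 280, 255, 303 and 329 in Con-Veh and 2125, 924, 497 and 4544 in Con-DHT, again with Con-DHT 4 the highest. Its log2 fold change was 2.32 ± 0.54 (adjusted p = 0.030), and it passed in 3 of 8 fits with a liver left out, those without Con-DHT 2, Con-DHT 3 and Con-DHT 4, with adjusted p up to 0.080 in the rest. Without Con-DHT 4 it was 1.77, and without the intensity trend the adjusted p was 0.067. Abcg1, a cholesterol exporter that is a target of LXR and is strongly expressed by macrophages, was 173, 202, 144 and 154 in Con-Veh and 130, 119, 116 and 109 in Con-DHT. The log2 fold change was -0.49 ± 0.13 (adjusted p = 0.046), and it passed only in the fit without Con-Veh 3 of the 8 with a liver left out, with adjusted p up to 0.12 in the others. It did not pass with spike-in scaling (-0.29, adjusted p = 0.91), with an equal total without Mup genes (-0.39, adjusted p = 0.085) or without the intensity trend (adjusted p = 0.056). The lower Kupffer cell markers stand beside this value too, and their part in it was not tested.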

How the data were processed

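Liver RNA of 8 female mice was sequenced, each mouse as its own library, and the labels gave 4 Con-Veh and 4 Con-DHT. The authors trimmed reads with Trimmomatic, aligned them with STAR (GRCm39 in the submitters' processing notes), counted uniquely mapped exonic reads with featureCounts and used DESeq2. ERCC spike-ins were added. They took 1.68% to 3.61% of the reads in the Con-Veh libraries and 2.22% to 2.75% in the Con-DHT libraries. Scaling by them carries this spread into every gene. The deposited values are a normalised signal, each gene's reads divided by 1 size factor per library. Dividing by the smallest step (tolerance 0.01) gave whole reads for 100% of the values, and no feature had fewer than 81 reads over the 8 libraries, so weakly expressed genes are missing. In a library, 3 reads correspond to between 2.61 and 3.30.

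Genes with a mean of at least 10 (14312) were tested on log2(value + 1), which shrinks low genes, with limma 3.58.1 (intensity trend) in R 4.3.3 and Benjamini-Hochberg adjustment over all of them at 0.05. Fold changes are given ± SE, and means ± SD over mice. edgeR 4.0.16 and DESeq2 1.42.0 were run on the recovered reads. Other pseudocounts (0.1, 5), filters (none, mean of 50), scalings (upper quartile, equal total without Mup genes, spike-ins), no trend, the replicate number as a block and each library left out were tried. Scripts were tested on simulated data. Ratios of a library to the 3 others of its group are on value + 1. Libraries of a group differed beyond sampling noise (chi-square per degree of freedom of at least 19.2 over 12 pairs). Exon lengths and positions came from GENCODE M21 (GRCm38) and promoters from RefSeq (GRCm38.p6). Named are all members, the genes of the other lists with an adjusted p of at most 0.05 and Mup20, which checks the labels; some items are not reported here, and genes outside this rule were named after their values were seen. The members and lists were chosen with earlier results of these data known. The labels pair no mice, and p-values measure the spread between mice.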

Additional observations from a re-analysis of the deposited data

Results flagged for a closer look

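In 70 groups of 4 livers (35 genes, in each group), the gap of the highest or lowest liver to its nearest neighbour was divided by the range of the group, and 7 groups exceeded Dixon's 95% critical value for 4 samples. Chance gives about 1 in 20. Con-DHT 4 was the liver far above its group in 5 of the 7, with 0.85 for Idi1, 0.844 for Sqle, 0.862 for Lss, 0.856 for Cyp51 and 0.905 for Nsdhl. These genes share the liver, so the 5 are not independent of each other. Con-Veh 2 was far above its group for Sqle (0.906), at 54.0 against 41.8 to 42.9. Con-Veh 3 was far above its group for Stard4 (0.898), at 578 against 281 to 312.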

How the results depend on the processing

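Of the 33 genes followed, 339 of 361 log2 fold changes under other settings and 226 of 264 with a library left out kept their direction and their side of the threshold. With all libraries, 1 member was called higher and 2 lower. The number called higher was 2 with an equal total without Mup genes (Cyp51 joined), 3 with spike-in scaling (Cyp51 and Idi1), 0 without the intensity trend and 3 with DESeq2, and with a library left out it lay between 0 and 2. The number called lower was 1 without Mup genes, 0 with spike-in scaling, 1 without the trend and 3 with DESeq2, and lay between 1 and 3 with a library left out. Npc2 passed in every setting except spike-in scaling.

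Labels give the groups the same replicate numbers and state no pairing of mice. The deviations of same-numbered libraries correlated at -0.186, -0.006, -0.022 and -0.076, and those of unlike numbers at up to 0.256. Low correlations cannot exclude a pairing, so a block was tried beside the main fit. With the replicate block, 0 members were called higher and 1 lower (Npc2), and 700 genes in all. The calls lost with it were Stard4 (adjusted p = 0.062), Soat2 (0.085) and, outside the members, Abcg1 (0.066).

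All genes called numbered 1032, 648 with a mean of at least 50, 636 with spike-in scaling, 1569 with DESeq2 and 638 to 897 with a library left out. Spike-in scaling moved the median of all genes to 0.19 and that of the members to 0.295, while the members' median relative to all genes was 0.11 as in the deposited scaling. The share of calls that were higher was 63.8%, 83.9% without Mup genes and 88.2% with spike-in scaling. Signs turned with spike-in scaling for Lbr (0.084), Mylip (0.030) and Soat1 (0.065), all under the shift of all genes. With a library left out, signs turned for Fdft1 (-0.078 to 0.19), Tm7sf2 (-0.020 to 0.21), Srebf2 (-0.094 to 0.16), Mvd (-0.15 to 0.27) and Fdps (-0.22 to 0.29). The causes were not tested. Depth limits Idi1, Mvd and Sqle most, which have the lowest counts.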
